A study of Mus musculus with 58 samples.

Results

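The genes described here are 10 Polycomb and H3K27 demethylase genes, Ezh1, Ezh2, Eed, Suz12, Jarid2, Kdm6b, Cbx7, Cbx8, Bmi1 and Rnf2. They were chosen by symbol, with earlier results of these data known, and with no threshold on any measured value. All 10 were found among the 55376 genes of the RNA-seq count files, and all 10 passed the filter on low counts in every comparison. RNA-seq was done on hematopoietic stem cells (HSCs) sorted from the bone marrow of WT male C57BL/6 mice that the labels call old or young. The old groups were ad lib feeding (OAL, n = 4 libraries), caloric restriction over the lifetime (OCR, n = 4), and restriction with refeeding at its end (OCRRF, n = 2). The young groups were the same feeding states with a short-term restriction, ad lib (YAL, n = 4), restricted (YCR, n = 4) and refed (YCRRF, n = 4). In the knockdown experiment, HSCs of aged donors were infected with shRNA viruses, transplanted into irradiated female recipients together with myeloid progenitors, and sorted again from the recipients. One arm carried GFP with a hairpin against Kdr (n = 4) beside a GFP scramble control (n = 2). The other carried GFP with the Kdr hairpin and mCherry with a Bmpr1a hairpin (n = 4, with 2 libraries for each of 2 Bmpr1a hairpins) beside a double scramble control (n = 2). The chromatin values analysed here were those of OCR and OCRRF by ATAC-seq (n = 4 and n = 2), for OCR alone by H3K4me3 and H3K27me3 ChIP-seq (n = 2 for each mark), and for OAL, OCR and OCRRF by PU.1 ChIP-seq (n = 2 for each group). The PU.1 libraries taken as OAL are titled OWT.

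Polycomb proteins keep genes silent through histone marks and work in complexes of different kinds. In Polycomb repressive complex PRC2, Ezh1 or Ezh2 is the enzyme that methylates H3K27, Eed and Suz12 are core subunits that the enzyme needs, and Jarid2 is an accessory subunit, while Kdm6b removes the methyl groups. In PRC1, Cbx7 or Cbx8 binds methylated H3K27 and Bmi1 partners Rnf2, the enzyme that ubiquitinates histone H2A. Bmi1 is known in blood for the self-renewal of stem cells, and Ezh2 is known in many tissues as a gene that dividing cells express more strongly, with Ezh1 present in resting cells too.

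The diet libraries held between 11102898 counts (YCRRF replicate 4) and 36579392 counts (YCRRF replicate 1), and the transplanted libraries between 35657999 and 44780217. Old libraries held counts on 42071 to 46646 genes and young libraries on 22209 to 33496 genes. Counts on 1735 olfactory and vomeronasal receptor genes, taken as a measure of background, reached 0.0927 to 0.260 CPM per kb in old libraries and 0.0116 to 0.083 CPM per kb in young libraries. This background and age cannot be told apart in a comparison of old with young libraries. By old group it was 0.0927 to 0.132 CPM per kb in OAL, 0.0982 to 0.220 in OCR and 0.203 to 0.260 in OCRRF, with counts on 42071 to 43972, 42859 to 46606 and 46232 to 46646 genes. OCRRF stood above OAL in both without overlap, so background and refeeding cannot be told apart in OCRRF versus OAL. Of the OCR libraries, only replicate 3 (0.220 CPM per kb and 46606 genes) reached the OCRRF range in both. Background and refeeding thus largely go together in OCRRF versus OCR too. Of 10 HSC marker genes, all were tested in each comparison, and their summed level was 3599 to 5108 CPM over the diet libraries, with Kit the most abundant in each OAL, OCR, OCRRF, YAL and YCR library. CPM here are counts scaled to library size with TMM factors. In bulk libraries, fewer cells of a type and less RNA per cell cannot be told apart.

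Compared per kb of exon, the 10 genes took the following order in OAL. Rnf2 averaged 25.9 ± 0.593 CPM per kb (SD, n = 4) in OAL and Bmi1 26.9 ± 0.966, and the ranges of these neighbours overlapped. Ezh1 followed at 23.6 ± 2.05 CPM per kb, overlapping with Rnf2 and above Suz12 at 17.3 ± 0.866 without overlap, and Suz12 overlapped with Eed and Eed with Cbx7. Jarid2 lay below them without overlap at 9.47 ± 1.04 CPM per kb and Ezh2 at 5.99 ± 0.308, each apart from its neighbours in OAL. Cbx8 at 2.73 ± 0.629 CPM per kb and Kdm6b at 2.18 ± 0.214 were the lowest and overlapped. In OCR the place of Ezh1 was 5 of 10, at 16.9 ± 1.81 CPM per kb, and that of Suz12 was 2 of 10, at 21.4 ± 2.74, while the order of Jarid2, Ezh2, Cbx8 and Kdm6b was that of OAL with Jarid2 and Ezh2 now overlapping. The transplanted cells had a different order at the lower end, with Cbx7 below Jarid2 in all 4 groups and Kdm6b at 0.556 to 0.892 CPM per kb as group means. Eed or Rnf2 stood highest in each transplanted group. The transplanted and the native cells were not compared by a test. They also differed in the sort (CD34 and Flk2 against CD48, with CD150 in both), RNA extraction, cDNA kit and sequencer, which cannot be told apart from transplantation here.

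Each comparison was tested with edgeR over all genes, and a call needed an adjusted p under 0.05 together with a fold change over 1.2. For OCR versus OAL, 5 of the 10 genes were called, against 5.57% of the 27150 genes tested. Ezh2 and Suz12 rose, and Ezh1, Cbx7 and Bmi1 fell. DESeq2 called the same 5, against 9.92% of the genes to which it gave an adjusted p, the base of all its shares here. Refeeding (OCRRF versus OCR) gave 2 calls of 10, Ezh2 and Suz12, both lower, against 3.41% of all genes, and DESeq2 called the same 2, against 17.3%. For OCRRF versus OAL, Bmi1 alone was called, lower in OCRRF, against 4.14% of all genes, while DESeq2 called 3, against 21.1% by that tool, with Ezh1 (−0.27, adjusted p = 0.0424) and Cbx7 (−0.26, adjusted p = 0.0433) beside it. For OAL versus YAL, 2 of 10 were called, with Ezh1 higher and Ezh2 lower in old cells, against 14.8% of all genes, and DESeq2 called the same 2, against 21.6%. These comparisons share libraries and are not independent of each other. The members were chosen with earlier results of these data known, so their shares beside those of all genes are a description and no test.

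No member was called by edgeR in the other comparisons. For YCR versus YAL, the count was 0 against 0.257% of all genes, with 3 of 10 members at an unadjusted p under 0.05 (Kdm6b, Ezh2 and Rnf2), against 9.29% of all genes, and 1 called by DESeq2 (Kdm6b), against 2.40% by that tool. For YCRRF versus YCR it was 0 against 0.0102%, with 2 at an unadjusted p under 0.05 (Ezh2 and Ezh1), against 7.27%, and 0 called by DESeq2, against 1.87%. For YCRRF versus YAL it was 0 against 0%, with 0 members at an unadjusted p under 0.05, against 3.69%, and 0 called by DESeq2, against 0.202%. The old minus the young response to restriction, tested as an interaction, called 0 members against 0.0424% of all genes, with 2 at an unadjusted p under 0.05 (Bmi1 and Kdm6b), against 8.93%, and 1 called by DESeq2 (Kdm6b), against 0.827%. The Kdr knockdown called 0 members against 0.0149%, with 2 at an unadjusted p under 0.05 (Eed and Kdm6b), against 8.90%, and 0 called by DESeq2, against 1.68%. The double knockdown called 0 members against 0.00498%, with 1 at an unadjusted p under 0.05 (Eed), against 9.85%, and 0 called by DESeq2, against 1.83%. The double minus the Kdr knockdown response called 0 members against 0%, with 0 at an unadjusted p under 0.05, against 3.58%, and 0 called by DESeq2, against 0.00889%. When 1 edgeR fit held all diet groups together, 0 members were called for OCR versus OAL, where 212 of 35587 genes (0.596%) were called, 0 for OCRRF versus OCR, against 0.180%, and 0 for OCRRF versus OAL, against 0%. In that fit Ezh2 alone was called for OAL versus YAL, against 11.0% of all genes, and for YCRRF versus YCR, against 1.51%.

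Libraries of a pair of groups can also be compared by whether they overlap, with no test. For OCR versus OAL they did not overlap for 5 of the 10 members, against 11.4% of all genes tested, and for OCRRF versus OCR for 5, against 28.3%. For OCRRF versus OAL this held for 3 members, against 38.6%, and for OAL versus YAL for 2, against 27.5%. In young cells it held for 1 member for YCR versus YAL, against 6.32%, for 1 for YCRRF versus YCR, against 5.52%, and for none for YCRRF versus YAL, against 3.22%. Under the Kdr knockdown it held for 3 members, against 21.9%, and under the double knockdown for 1, against 21.3%. In OCRRF versus OAL, OAL versus YAL and both knockdowns, the share of members was near or below that of all genes.

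Ezh2, the PRC2 enzyme gene, measured 41.6, 37, 40.8 and 40.6 CPM in the 4 OAL libraries and 67.3, 62.4, 50.8 and 57.9 CPM in the 4 OCR libraries. It measured 39.5 and 36.2 CPM in OCRRF. Every OCR library lay above every OAL library, and both OCRRF libraries lay below every OCR library and overlapped with OAL. The log2 fold change of Ezh2 for OCR versus OAL was 0.59 (edgeR adjusted p = 0.000101, SE 0.0954). After refeeding (OCRRF versus OCR) it was −0.71 (edgeR adjusted p = 0.00091, SE 0.137), and without OCRRF replicate 2 it was −0.60 with an adjusted p of 0.0766, which ended the call. OCRRF rests on 2 libraries. For OCRRF versus OAL it was −0.09 (edgeR adjusted p = 0.539, SE 0.0935). With all diet groups in 1 fit, Ezh2 was at 0.57 for OCR versus OAL (edgeR adjusted p = 0.0833), which ended the call. The OCRRF versus OCR call also ended in that fit, at −0.65 (edgeR adjusted p = 0.259).

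In young cells Ezh2 was not called. It measured 61.5, 56.3, 69.3 and 60.2 CPM in YAL and 67.1, 91.8, 76.7 and 67.6 CPM in YCR. Levels in YCRRF were 57.5, 33.3, 57 and 47.1 CPM. The YCR and YAL ranges overlapped, and each YCRRF library lay below each YCR library. YCR versus YAL gave a log2 value of 0.31 (edgeR adjusted p = 0.504, SE 0.136). For YCRRF versus YCR it was −0.66 (edgeR adjusted p = 0.423, SE 0.2), and Ezh2 was called there when all diet groups were in 1 fit. The old minus young response of Ezh2 was 0.29 (edgeR adjusted p = 0.658, SE 0.159), which did not pass the threshold. Between the ad lib groups, all OAL libraries lay below all YAL libraries, with a log2 fold change of −0.62 (edgeR adjusted p = 0.00382, SE 0.0995).

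Ezh1, the other PRC2 enzyme gene, went the opposite way in old cells. Its levels were 162, 197, 171 and 173 CPM in OAL and 110, 118, 136 and 137 CPM in OCR. In OCRRF they were 167 and 144 CPM. The OCR libraries all lay below the OAL libraries, and the OCRRF libraries lay above OCR and overlapped with OAL. Its log2 fold change for OCR versus OAL was −0.47 (edgeR adjusted p = 0.000569, SE 0.0872). With refeeding (OCRRF versus OCR) it was 0.26 (edgeR adjusted p = 0.273, SE 0.121), and with the replicate number as a block it was 0.37 with an adjusted p of 0.0362. OCR replicates 3 and 4 share no number with an OCRRF library, so the value with the block rests on replicates 1 and 2. The replicate numbers also did not pair samples. YAL libraries measured 122, 145, 148 and 145 CPM of Ezh1, all below OAL. OAL versus YAL gave a log2 fold change of 0.34 (edgeR adjusted p = 0.021, SE 0.0833). The call was lost in edgeR without OAL replicate 2 (0.28, adjusted p = 0.0783), without OAL replicate 3 (0.35, adjusted p = 0.0561) and without OAL replicate 4 (0.35, adjusted p = 0.061), and also with all diet groups in 1 fit (0.33, adjusted p = 0.133). In YCR, Ezh1 measured 111, 148, 98.9 and 104 CPM, which overlapped with YAL. Its YCRRF libraries measured 181, 132, 120 and 200 CPM, overlapping with both.

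**Figure D1:**
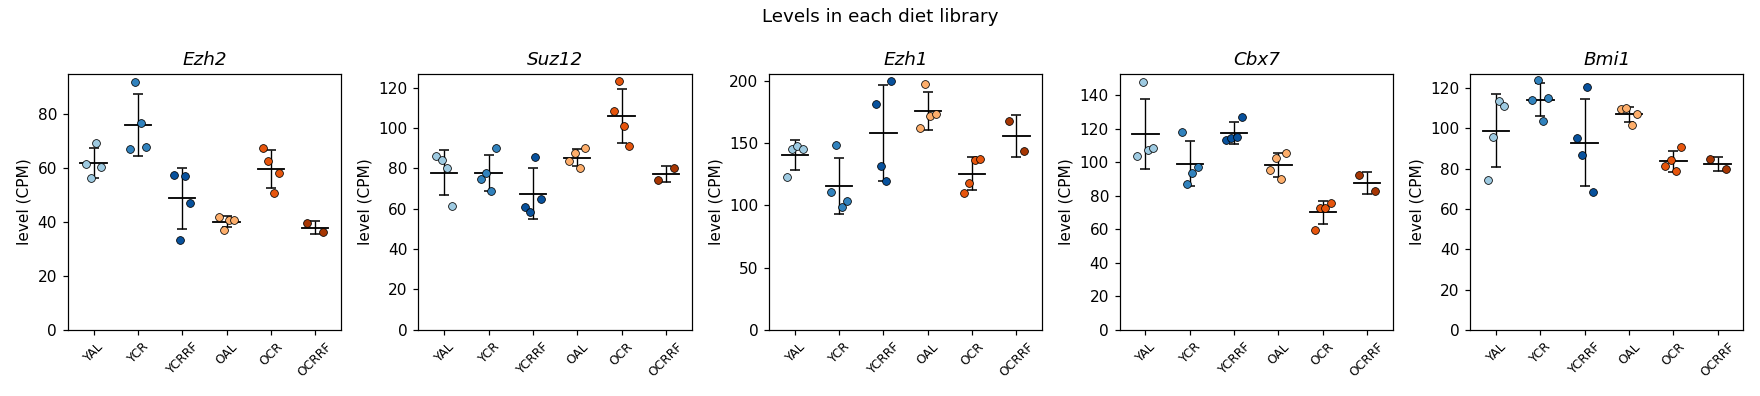
Levels (CPM, TMM-scaled) of the 5 genes called for OCR versus OAL in each diet library. Points are libraries, and bars are the group mean and SD. The OCR libraries of Ezh2 (50.8 to 67.3 CPM) lie above those of OAL (37 to 41.6 CPM), and those of Ezh1, Cbx7 and Bmi1 lie below OAL.

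The ratio of Ezh2 to Ezh1 within a library, on the log2 scale of CPM per kb, put these opposite shifts together. It measured −1.80, −2.26, −1.91 and −1.94 in OAL and −0.55, −0.77, −1.27 and −1.09 in OCR. In OCRRF it measured −1.93 and −1.83. The OCR libraries had more Ezh2 for each unit of Ezh1 than any OAL or OCRRF library, although Ezh1 stayed the higher of the 2 per kb in all diet libraries. Group means were −1.02 ± 0.17 in YAL, −0.44 ± 0.16 in YCR and −1.54 ± 0.46 in YCRRF (SD, n = 4). YCR lay above both other young groups without overlap, and YCRRF overlapped with YAL. In the transplanted cells the mean was −0.15 ± 0.1 in the GFP scramble control (n = 2) and 0.08 ± 0.24 under the Kdr knockdown (n = 4). It was 0.41 ± 0.14 in the double scramble control (n = 2) and 0.61 ± 0.34 under the double knockdown (n = 4). Each knockdown overlapped with its own control. The sign of the Kdr knockdown mean was not fixed, since it was −0.02 without replicate 1 and −0.07 without scaling to exon length.

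**Figure D2:**
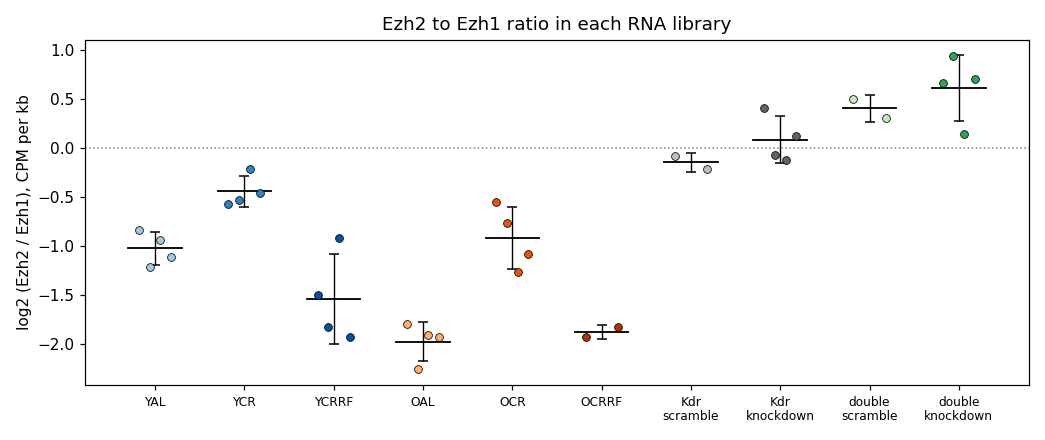
Log2 ratio of Ezh2 to Ezh1 (CPM per kb of exon) in each RNA library of all 10 groups. Points are libraries, and bars are the group mean and SD. Diet groups lie below 0, from a mean of −1.98 in OAL to −0.44 in YCR, and the double knockdown and its control lie above 0. Diet and transplanted groups differed in sort and library preparation.

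Suz12, which encodes a core PRC2 subunit, measured 83.5, 87.5, 80.3 and 90 CPM in OAL and 108, 123, 101 and 91.2 CPM in OCR. It measured 74.4 and 80 CPM in OCRRF. OCR replicate 4 was just above the highest OAL library, and both OCRRF libraries lay below OCR and OAL. The log2 fold change for OCR versus OAL was 0.33 (edgeR adjusted p = 0.023, SE 0.0895). In edgeR the call was lost without OCR replicate 1 (0.32, adjusted p = 0.0661), OCR replicate 2 (0.24, adjusted p = 0.136), OAL replicate 1 (0.32, adjusted p = 0.0758) or OAL replicate 3 (0.30, adjusted p = 0.0829). Refeeding gave a log2 fold change for OCRRF versus OCR of −0.52 (edgeR adjusted p = 0.0141, SE 0.129). In edgeR this call was lost without OCRRF replicate 1 (−0.51, adjusted p = 0.278), OCRRF replicate 2 (−0.51, adjusted p = 0.149) or OCR replicate 2 (−0.43, adjusted p = 0.0737). For YCR versus YAL the log2 fold change of Suz12 was 0.02 (edgeR adjusted p = 0.987, SE 0.138). The old minus young response of Suz12 was 0.32 (edgeR adjusted p = 0.577, SE 0.158).

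The other PRC2 members varied less in the old groups. Eed, a core subunit gene that reads the methyl mark, measured 62.8, 64.8, 67.3 and 60.6 CPM in OAL and 75.9, 72.1, 58.4 and 70.2 CPM in OCR, with overlapping ranges. Its log2 fold change for OAL versus YAL was −0.36 (edgeR adjusted p = 0.0739, SE 0.125), and −0.47 with an adjusted p of 0.0119 without YAL replicate 2, which then passed. With no filter on low counts it was −0.39 with an adjusted p of 0.0417. Jarid2, whose product helps PRC2 bind chromatin, gave a log2 fold change of −0.01 (edgeR adjusted p = 0.985, SE 0.086) for OCR versus OAL, with overlapping ranges of 84.6 to 92.9 CPM in OCR and 81.1 to 106 CPM in OAL.

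Of 8 further PRC2 genes in a list of its own, 7 were in the count files. The shares of all genes called, given above by comparison and tool, are the measure for this list and for those that follow. At an unadjusted p under 0.05 in edgeR stood 16.2% of all genes for OCR versus OAL and 16.9% for OCRRF versus OCR. For OCR versus OAL 1 of these 7 rose, Phf19, an accessory subunit gene, with a log2 fold change of 0.98 (edgeR adjusted p = 1.27e-05, SE 0.137). Phf19 measured 7.19, 7.29, 8.09 and 8.64 CPM in OAL and 14.9, 16.9, 16.5 and 12.6 CPM in OCR, with no overlap. Of the 7, 2 fell for OCRRF versus OCR, Phf19 at −0.94 (edgeR adjusted p = 0.00119, SE 0.185) and the histone-binding subunit gene Rbbp4 at −0.43 (edgeR adjusted p = 0.0347, SE 0.12), while DESeq2 called 4. OAL versus YAL called 3 of 7, with Phf19 at −1.07 and Rbbp7 at −0.33 lower and Epop at 1.01 higher in old cells, and DESeq2 called the same 3. The median log2 fold change of the 7 was 0.12 for OCR versus OAL, beside 0.02 over all genes tested.

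Kdm6b, the H3K27 demethylase gene, was, with Cbx8, 1 of the 2 lowest members per kb in each diet group. It measured 10.8, 15.8, 17.5 and 13.1 CPM in YAL and 24.6, 26.2, 19 and 24.4 CPM in YCR. In YCRRF it measured 19.1, 24.5, 38.5 and 11.1 CPM, a spread wider than in either other young group. YCRRF replicate 3, at 38.5 CPM, stood apart from its group over the genes compared. Its chi-square per degree of freedom was 336 with replicate 1, 238 with replicate 2 and 153 with replicate 4. Pairs of YCRRF libraries without it gave 28.4 to 56.4. All YCR libraries lay above all YAL libraries. YCR versus YAL gave 0.74 (edgeR adjusted p = 0.239, SE 0.213), and DESeq2 called it at 0.74 with an adjusted p of 0.0153. The old minus young response of Kdm6b was −0.85 (edgeR adjusted p = 0.296, SE 0.239), and DESeq2 called it at −0.84 with an adjusted p of 0.0229. In OAL, Kdm6b measured 13.9, 14.4, 15.1 and 17.2 CPM and in OCR 13.4, 14.6, 14.5 and 12.4 CPM, with overlap. Both OCRRF libraries, at 18.7 and 18.4 CPM, lay above every OAL and OCR library, with 0.38 against OCR (edgeR adjusted p = 0.211, SE 0.159) and 0.28 against OAL (edgeR adjusted p = 0.167, SE 0.128), neither called. B cell markers stood high in 3 of the 4 YCR libraries, where their 7 genes summed to 71.7, 591, 476 and 315 CPM, against 157, 79.7, 101 and 92.1 CPM in YAL. Cd79b was the most abundant of them in YAL and in YCR replicate 1, Ighm in YCR replicate 2, and Jchain in YCR replicates 3 and 4. Of the megakaryocyte markers, all 5 tested for YCR versus YAL were higher in YCR, by 0.54 to 0.78, with 0 called by edgeR, 4 at an unadjusted p under 0.05 and 2 called by DESeq2 (Gp9 and Itga2b). They summed to 427, 400, 341 and 267 CPM in YCR and 269, 222, 183 and 215 CPM in YAL, with overlap. The part of these markers in the Kdm6b values was not tested.

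A list of 12 other chromatin genes held Kdm6a and Uty, the H2A deubiquitination genes Bap1, Asxl1, Asxl2, Asxl3 and Usp16, the H3K4 methyltransferase genes Kmt2c and Kmt2d, and Foxk1, Foxk2 and Kansl1. Of these 12, 0 were called for OCR versus OAL by edgeR, with 2 at an unadjusted p under 0.05 and 0 called by DESeq2. Kdm6a, an H3K27 demethylase gene like Kdm6b, had a log2 fold change of −0.06 (edgeR adjusted p = 0.832, SE 0.0931). For OCRRF versus OCR 1 of 12 fell (Foxk2, −0.45, edgeR adjusted p = 0.0427). For OCRRF versus OAL 1 of 12 rose (Asxl3, 0.85, edgeR adjusted p = 0.0483), and for OAL versus YAL 2 of 12 fell (Usp16 at −0.31 and Asxl1 at −0.28). DESeq2 called Foxk2 in the first of these comparisons, Asxl3 and Bap1 in the second, and Usp16 and Kdm6a but not Asxl1 in the third. There, Kdm6a had a log2 value of 0.44, higher in old cells (edgeR adjusted p = 0.0684, SE 0.148).

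Cbx7, a PRC1 reader gene, measured 95.2, 103, 89.7 and 105 CPM in OAL and 59.6, 72.4, 72.7 and 75.4 CPM in OCR. In OCRRF it measured 92.2 and 83.1 CPM, above all OCR libraries. All OCR libraries lay below all OAL libraries. The log2 fold change for OCR versus OAL was −0.47 (edgeR adjusted p = 0.000713, SE 0.0889). For OCRRF versus OCR it was 0.27 (edgeR adjusted p = 0.262, SE 0.123), and for OCRRF versus OAL −0.18 (edgeR adjusted p = 0.184, SE 0.0841). Cbx7 measured 104, 148, 107 and 108 CPM in YAL, and YCR versus YAL gave −0.22 (edgeR adjusted p = 0.689, SE 0.136).

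Bmi1, the PRC1 partner of Rnf2, measured 109, 110, 101 and 107 CPM in OAL and 81.2, 84.2, 78.6 and 90.6 CPM in OCR. In OCRRF it measured 84.8 and 79.7 CPM, inside the OCR range. OCR and OCRRF both lay wholly below OAL. Its log2 fold change for OCR versus OAL was −0.34 (edgeR adjusted p = 0.00876, SE 0.0809). For OCRRF versus OAL it was −0.39 (edgeR adjusted p = 0.0204, SE 0.0752), and for OCRRF versus OCR −0.08 (edgeR adjusted p = 0.768, SE 0.12). With edgeR, the OCRRF versus OAL call was lost without OCRRF replicate 1 (−0.45, adjusted p = 0.0863), OCRRF replicate 2 (−0.35, adjusted p = 0.157), OAL replicate 1 (−0.35, adjusted p = 0.0711), OAL replicate 2 (−0.36, adjusted p = 0.0695) or OAL replicate 4 (−0.36, adjusted p = 0.0501). Over all genes the median was 0.12 in this comparison and 0.11 in OCRRF versus OCR (log2), so fold changes there are relative to those shifts. For OCRRF versus OAL, edgeR also called the megakaryocyte markers Gp9 (−0.43) and Gp5 (−0.60) lower and the B cell marker Pax5 (1.41) higher. DESeq2 called 4 megakaryocyte, 3 HSC, 2 multipotent progenitor, 1 B cell, 1 myeloid and 1 stromal and endothelial marker in that comparison. The part of these markers in the Bmi1 values was not tested. Bmi1 in young cells measured 74.1, 95.8, 114 and 111 CPM in YAL and 114, 124, 104 and 115 CPM in YCR, with overlap. The old minus young response of Bmi1 was −0.56 (edgeR adjusted p = 0.268, SE 0.151).

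Rnf2, the PRC1 enzyme gene, overlapped between all old groups. Its ranges were 105 to 110 CPM in OAL, 95.9 to 115 CPM in OCR and 97.9 to 108 CPM in OCRRF. Its log2 fold change for OCR versus OAL was 0.01 (edgeR adjusted p = 0.978, SE 0.0825). The sign changed under DESeq2, with no filter and with all diet groups in 1 fit. Cbx8, a reader gene like Cbx7, ranged from 8.55 to 13.4 CPM in OAL and from 6.53 to 10.3 CPM in OCR, with a log2 fold change of −0.10 (edgeR adjusted p = 0.859, SE 0.169). In YCR Cbx8 measured 18.3, 17.2, 7.31 and 3.4 CPM, with libraries far apart in 1 group.

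Of 24 further PRC1 genes, 1 was called by edgeR for OCR versus OAL and 0 by DESeq2. It was Bcor, higher in OCR with a log2 fold change of 0.30 (edgeR adjusted p = 0.0416, SE 0.0887). After refeeding 2 of 24 were lower than in OCR, Bcor at −0.58 and Phc1 at −0.44, against 3.41% of all genes, while DESeq2 called 5, against 17.3%. For OCRRF versus OAL 1 of 24 fell, Cbx6 at −0.28, against 4.14% of all genes, while DESeq2 called 10, against 21.1%. OAL versus YAL called 3 of 24, with Rybp at 0.57 higher and Phc2 at −0.47 and E2f6 at −0.43 lower in old cells, against 14.8% of all genes, while DESeq2 called 5, against 21.6%. In edgeR the share of the list was near or below that of all genes for OCR versus OAL, OCRRF versus OAL and OAL versus YAL.

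Several CDK inhibitor genes are known Polycomb targets. Of 5 in this list, 3 were tested for OCR versus OAL, with 0 called by edgeR, 0 at an unadjusted p under 0.05 and 0 called by DESeq2. Cdkn2a measured 0.115, 0.190, 0.193 and 0.0304 CPM in OAL and 0.254, 0.287, 0.388 and 0.450 CPM in OCR, and was not tested there. Cdkn2c had a log2 fold change of −0.19 (edgeR adjusted p = 0.608, SE 0.145) for OCR versus OAL, and Cdkn1c −0.14 (edgeR adjusted p = 0.528, SE 0.096). Refed cells had less Cdkn2c than OAL, at −0.65 (edgeR adjusted p = 0.0377, SE 0.164, OCRRF versus OAL). For OAL versus YAL, Cdkn2c was higher in old cells at 1.16 (edgeR adjusted p = 0.00773, SE 0.221) and Cdkn1c lower at −0.65 (edgeR adjusted p = 0.00118, SE 0.0839), while DESeq2 called 3.

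Genes of dividing cells were called beside Ezh2 in several comparisons. Of 10 proliferation genes, 10 rose for OCR versus OAL, 10 fell for OCRRF versus OCR and 8 fell for OAL versus YAL, with the same numbers called by DESeq2. The 2 not called for OAL versus YAL were Mki67 (0.15) and Ccna2 (−0.32). Against OAL, OCRRF had 1 of the 10 called by edgeR, Pcna, lower at −0.34 (adjusted p = 0.0287), and DESeq2 called 4. Their median log2 fold change for OCR versus OAL was 1.39, beside 0.02 over all genes. Their summed level was 473, 463, 499 and 438 CPM in OAL and 1152, 1238, 914 and 881 CPM in OCR. In OCRRF it was 396 and 429 CPM, so OCR stood above both, and OCRRF below OAL, without overlap. Mki67, a gene of cycling cells that stands for proliferation here, measured 30.7 to 39.5 CPM in OAL, 98.2 to 144 CPM in OCR and 35.5 to 36.8 CPM in OCRRF. Its young ranges were 8.62 to 39.2 CPM (YAL), 49.1 to 88.9 CPM (YCR) and 11.2 to 44.2 CPM (YCRRF). In young cells 1 of the 10 genes was called for YCR versus YAL (Top2a, 0.68) and 4 by DESeq2, and YCRRF versus YCR called 0 in edgeR, with 8 at an unadjusted p under 0.05 and 5 in DESeq2. The old minus young response called 3 of the 10, Top2a at 1.27, Ccnb1 at 1.45 and Cdk1 at 1.41, and DESeq2 called 5. The share of dividing cells in the libraries was not measured, and its part in the Ezh2 values was not tested.

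Other marker lists held single calls or calls in both directions for OCR versus OAL. The 8 erythroid markers summed to 156, 46.7, 166 and 236 CPM in OAL and 59.7, 52.5, 82.9 and 82.5 CPM in OCR, overlapping, with Hbb-bs the most abundant in OAL, and with 1 gene called higher (Epor) and 3 lower (Hbb-bs, Hba-a1 and Hba-a2). The 6 T and NK cell markers summed to 57.6, 55.3, 49.0 and 59.8 CPM in OAL and 26.3, 32.4, 35.7 and 27.2 CPM in OCR, without overlap, with Klrb1c the most abundant and the 1 gene called, lower in OCR at −0.95. The other 4 tested, all uncalled, were higher in OCR (Cd3d 0.74, Cd3e 0.27, Cd3g 0.38 and Cd8a 0.71). None of the 6 was at 0 in these libraries. The 6 stromal and endothelial markers summed to 48.4, 45.3, 44.6 and 51.0 CPM in OAL and 30.4, 37.7, 40.2 and 36.6 CPM in OCR, without overlap, with Emcn the most abundant and the 1 gene called, lower in OCR at −0.83. The other 5, all uncalled, were higher in OCR, by 0.11 to 0.51. Among the HSC markers, Ctnnal1 rose and Fgd5, Ly6a and Procr fell, and the list had sums of 4113 to 4700 CPM in OAL and 3599 to 4267 CPM in OCR.

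The other blood cell lists gave at most 1 call each for OCR versus OAL. Of 7 B cell markers 1 was called, Jchain, lower in OCR at −5.03 (edgeR adjusted p = 9.93e-05, SE 0.809), and the 7 summed to 85.5, 39.1, 65.9 and 42.6 CPM in OAL and 43.7, 42.2, 44.7 and 36.3 CPM in OCR, overlapping. Cd79b was the most abundant of them in every old library but OAL replicate 1, where it was Jchain. Of 10 myeloid markers 1 fell, Prtn3 at −0.41, with sums of 653 to 795 CPM in OAL and 605 to 653 CPM in OCR and with Lyz2 the most abundant. Of 5 megakaryocyte markers tested of 6 listed, 0 were called by edgeR, with 3 at an unadjusted p under 0.05 and 0 called by DESeq2, and they summed to 255 to 287 CPM in OAL and 267 to 376 CPM in OCR, with Itga2b the most abundant. Of 4 multipotent progenitor (MPP) markers 0 were called by edgeR, with 1 at an unadjusted p under 0.05 and 0 called by DESeq2, and they summed to 231 to 278 CPM in OAL and 209 to 283 CPM in OCR.

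After refeeding (OCRRF versus OCR), edgeR called 4 of 8 erythroid markers (3 higher and 1 lower), 4 of 5 megakaryocyte markers lower, 2 of 7 B cell markers higher, 1 T and NK cell marker higher (Klrb1c), 1 stromal and endothelial marker higher (Emcn), and 2 HSC markers (Ly6a higher and Kit lower). DESeq2 called 1 erythroid marker (Epor), 3 megakaryocyte markers, 1 T and NK cell marker (Klrb1c) and 3 HSC markers there. DESeq2 also called 1 MPP marker, Flt3, which edgeR did not call (−0.48, edgeR adjusted p = 0.129). It called 0 B cell and 0 stromal and endothelial markers, of which 6 and 1 had an unadjusted p under 0.05 in edgeR. The megakaryocyte markers summed to 225 and 229 CPM in OCRRF, below every OCR library. For OAL versus YAL, 4 of 4 MPP markers fell, with sums of 231 to 278 CPM in OAL below 319 to 363 CPM in YAL, and Cd34 the most abundant. Of the same comparison's B cell markers 5 of 7 were called, of its myeloid markers 4 of 10, of its erythroid markers 3 of 8, and of its T and NK cell markers 2 of 3 tested, while DESeq2 called 4 MPP, 6 B cell, 5 myeloid, 4 erythroid and 3 T and NK cell markers. The part of these lists in the member values was not tested.

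Across the 22 diet libraries, with the mean of each age subtracted on the log2 scale, the levels of 12328 genes of at least 5 CPM were compared with those of Ezh2 and Ezh1. The most like those of Ezh2 were Incenp (Pearson r = 0.94), Spc24 (0.93), Tyms (0.91), Top2a (0.91) and Mcm5 (0.91), while Mki67 stood at place 298 (0.64). For Ezh1 they were Serinc1 (0.85), Aplp2 (0.83), Isca1 (0.83), Tns2 (0.81) and Gadd45g (0.81). These values are a description of libraries that fall into 6 diet groups, and they carry no test.

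The knockdown of the targeted genes was read first. Kdr measured 6.04 and 6.07 CPM in the GFP scramble libraries and 1.93, 2.21, 3.28 and 2.03 CPM in the Kdr knockdown libraries, all lower, with a log2 fold change of −1.35 (edgeR adjusted p = 0.247, SE 0.251). In the double knockdown, Kdr measured 1.24, 0.556, 1.60 and 1.35 CPM against 3.98 and 4.63 CPM in its control, with −1.86 (edgeR adjusted p = 0.272, SE 0.373). Bmpr1a measured 4.44, 0.657, 2.22 and 0.595 CPM in the double knockdown against 5.21 and 4.43 CPM, with −1.29 (edgeR adjusted p = 0.602, SE 0.717). DESeq2 called Kdr in both knockdowns and Bmpr1a in neither. Replicate 1, with the first Bmpr1a hairpin, was as high as the control library of 4.43 CPM.

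Among the members, Eed stood above its control in both knockdowns. It measured 121, 126, 117 and 109 CPM under the Kdr knockdown against 102 and 90.4 CPM, a log2 fold change of 0.30 (edgeR adjusted p = 0.389, SE 0.088). Under the double knockdown it measured 113, 123, 112 and 130 CPM against 103 and 102 CPM, a log2 fold change of 0.22 (edgeR adjusted p = 0.395, SE 0.0738). Neither passed the threshold, with all knockdown libraries above all control libraries in each. Ezh2 measured 120, 100, 98.5 and 103 CPM under the Kdr knockdown against 92.8 and 91.5 CPM, with 0.19 (edgeR adjusted p = 0.581, SE 0.0935). Kdm6b measured 3.75, 2.48, 4.30 and 4.93 CPM against 6.59 and 5.81 CPM, with −0.68 (edgeR adjusted p = 0.517, SE 0.268). These libraries also stood wholly on 1 side of their controls. Under the double knockdown, Ezh2 (111 to 147 CPM against 116 and 99.5 CPM) and Kdm6b (3.26 to 5.07 CPM against 3.90 and 5.88 CPM) overlapped with the control. Proliferation genes numbered 10 of 10 higher and 0 of 10 called by edgeR under the Kdr knockdown, with 3 at an unadjusted p under 0.05 and 0 called by DESeq2. Mki67 measured 97.1 and 89.7 CPM in the GFP scramble libraries and 85.5 to 116 CPM under the Kdr knockdown. HSC markers numbered 10 of 10 lower and 0 of 10 called by edgeR there, with 6 at an unadjusted p under 0.05 and 4 called by DESeq2. Under the double knockdown, 3 of 10 proliferation genes were higher and 8 of 10 HSC markers lower, with 0 called by edgeR, 1 of each list at an unadjusted p under 0.05 and 0 called by DESeq2. Other markers were called by DESeq2 alone, with edgeR adjusted p values of 0.248 to 0.400. Under the Kdr knockdown these were the B cell markers Cd79a (3.06, edgeR log2 value) and Ighm (3.04), the MPP markers Cd34 (0.35) and Cd48 (0.91) and the myeloid marker Mpo (4.46). Under the double knockdown they were the stromal markers Col1a2 (−2.36) and Cxcl12 (−2.27), the erythroid marker Klf1 (−1.79) and Cd34 (0.58). The part of such markers in the member values was not tested. Ezh1, Suz12, Jarid2, Cbx7, Cbx8, Bmi1 and Rnf2 overlapped with their controls in both knockdowns.

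In OCR cells, the promoter signal of the histone marks was a mean per base, given here as a percentile among 25127 gene promoters. All 10 members were above the median for H3K4me3, a mark of active promoters, in both replicates, from the percentiles 69.1 and 69.2 of Cbx7 to 94.2 and 95.5 of Ezh2. For H3K27me3, the mark that PRC2 makes, 3 of 10 members were above the median in both replicates. Bmi1 was at the percentiles 93.2 and 93.0, Cbx8 at 72.8 and 65.6, and Ezh2 at 69.2 and 73.9. The other 7 were below it, with Cbx7 at 5.38 and 17.3. Histone values of OAL were not analysed here, so no diet was compared.

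At the promoters of the members, 14 ATAC-seq peaks within 1 kb of a start were tested for OCRRF versus OCR with edgeR, none of them at Kdm6b. Of these, 0 were called, against 0.221% of all 123372 peaks, with 1 at an unadjusted p under 0.05 and 0 called by DESeq2. Over all peaks, 14437 (11.7%) had an unadjusted p under 0.05. The peak of Ezh2 at chr6:47594034-47595727 measured 69.6, 72.1, 67.3 and 77.5 CPM in OCR and 74.9 and 70.7 CPM in OCRRF, with a log2 fold change of 0.06 (edgeR adjusted p = 0.792, SE 0.0663). The Ezh2 RNA fell over the same diets while this peak overlapped between them. A Bmi1 peak at chr2:18680897-18681394 had the lowest adjusted p of the 14, at 0.113, with both OCRRF libraries (16.4 and 15.8 CPM) above the OCR libraries (11.1 to 12.9 CPM). This peak lay inside the gene and not over the outermost gene start, at chr2:18677018. The Bmi1 peak over that start, at chr2:18676396-18677465, had a log2 fold change of 0.10 (edgeR adjusted p = 0.683). Peaks of Jarid2 and Cbx7 among the 14 also lay away from the outermost gene start.

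Ezh1 carried a PU.1 peak in its gene in 6 of 6 PU.1 libraries, with summits 4724 to 4738 bases inside its start and outside any exon. Its fold enrichment was 23.3 and 20.7 in OAL, 22.4 and 21.9 in OCR, and 22.4 and 16.7 in OCRRF, while the median over all peaks of a library was 7.86 to 8.40. OCRRF replicate 2 was the lowest, and the 5 others ran from 20.7 to 23.3. The antibody differed between replicate 1 and replicate 2 in each group. The share of all genes with a PU.1 peak in the gene is not given here. The sequence of 201 bases around the median summit is shown because all 6 libraries called it, read 5′ to 3′ on the minus strand of RefSeq GRCm38.p6 at chr11:101221635-101221835. Capitals mark GAGGAAGT, a form of the PU.1 core motif, searched on both strands and found once. Of the summit windows in a library, 35.1% to 39.2% hold that motif, and of 32851 promoters 2.44% do.

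Ezh1 PU.1 peak: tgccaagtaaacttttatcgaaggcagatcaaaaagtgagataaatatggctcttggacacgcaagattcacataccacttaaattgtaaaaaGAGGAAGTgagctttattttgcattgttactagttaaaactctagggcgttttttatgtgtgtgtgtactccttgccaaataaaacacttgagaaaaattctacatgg

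Jarid2 had a PU.1 peak in its gene at 1 place in 4 of 6 libraries. In Kdm6b the peaks lay at 2 places that did not overlap, 1 near chr11:69410328-69410638 in both OAL libraries and OCRRF replicate 1, the other near chr11:69409542-69409827 in OCR replicate 1 and OCRRF replicate 2. The Jarid2 peak had a fold enrichment of 12.5 and 12.8 in OCR, 7.52 in OAL replicate 2 and 7.55 in OCRRF replicate 1. Cbx8 was the only member with a peak within 1 kb of a start, in both OCR libraries (fold enrichment 4.92 and 5.97) and in no OAL or OCRRF library. Its −log10 q values were 3.15 and 4.86, so at a minimum of 5 no member had a promoter peak. The number of peaks called was 5464 and 3852 in OCR, 3046 and 2900 in OAL and 2817 and 2262 in OCRRF, and its part in the Cbx8 calls was not tested. The share of all genes with a PU.1 peak, in the gene or within 1 kb of a start, is not given here. The counts of members with a peak, also at the minimum of 5, therefore have no share to be read against.

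RefSeq promoter sequences matched 9 of the 10 members, all but Kdm6b, and the 250 bases before each start were searched on both strands. The E2F motif TTTCCCGC, held by 0.895% of all promoters, was in Suz12 alone among the members, at position −219 from its start. TTTGGCGC, held by 0.417% of promoters, was in no member promoter. The CHR motif TTTGAA, held by 16.0% of promoters, was in Eed, Suz12 and Cbx7, and CCAAT, held by 33.8%, in Ezh2, Suz12, Jarid2, Cbx7 and Cbx8. Ezh2 held CCAAT at 3 places. The promoter of Suz12 is shown because it held each of these motifs but TTTGGCGC, and its RNA rose for OCR versus OAL and fell for OCRRF versus OCR. It is on the plus strand of RefSeq GRCm38.p6 at chr11:79992856-79993105, and capitals mark TTTCCCGC, the reverse complement of TTTGAA, and CCAAT in that order.

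Suz12 promoter: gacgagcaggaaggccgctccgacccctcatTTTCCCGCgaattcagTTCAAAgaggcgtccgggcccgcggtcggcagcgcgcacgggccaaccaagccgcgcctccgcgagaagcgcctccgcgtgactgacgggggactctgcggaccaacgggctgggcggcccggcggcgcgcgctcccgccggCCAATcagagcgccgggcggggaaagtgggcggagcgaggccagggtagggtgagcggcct

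A match is a description of letters in this window and not of a bound site.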

How the data were processed

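Per the submitters' processing notes, the tools were cutadapt, STAR, featureCounts, BWA and MACS2, with mm10 as the genome. The authors made the RNA-seq counts per gene with STAR and featureCounts, and the ATAC-seq counts per consensus peak (131918 peaks) from deduplicated reads, both without normalization. The deposited histone signal is a sum and a mean per base over a promoter window of each transcript, scaled by the authors to a fixed number of reads. The deposited PU.1 peak files of MACS2 hold a score, a fold enrichment at the summit, and −log10 p and −log10 q.

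The 10 members and all gene lists were chosen with earlier results of these data known. Other listed genes were named where called, up to 3 in each direction for each list and comparison. DESeq2 calls given by name were named after their values were seen. Genes averaging 5 CPM or more could be named as correlates.

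Fits used edgeR 4.0.16 in R 4.3.3, with filterByExpr, TMM, a quasi-likelihood F test and Benjamini-Hochberg adjustment over all genes tested, and SE is the absolute log2 fold change over the root of F. Adjusted p values in leave-one-out fits are from edgeR. ATAC-seq calls needed an adjusted p under 0.05, a fold over 1.5 and a mean log2 CPM over 1.5. Levels are TMM-scaled CPM within the diet or the knockdown libraries, per kb of the union of exons where genes are compared, and log2 levels used a prior count of 2. Exons shared with another gene were at most 6.82% (Eed). The lowest chi-square per degree of freedom of 2 replicates of a group was 8.17, so no replicate was a copy of another of its group. ATAC-seq libraries held 15721335 to 19558148 counts, and those of RNA-seq are given above. Promoter peaks lay within 1000 bases of a start. The PU.1 antibody was from ThermoFisher in replicate 1 per the labels and from abcam in replicate 2 per its file names. Tables and figures used Python 3.11.15, pandas 2.3.3 and matplotlib 3.10.9. The fits were tested on simulated data.

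The alternatives were DESeq2 1.42.0, its size factors in edgeR, no filter, a filter of 10 counts per library, 1 fit of all groups, blocks by replicate number, adjusted p alone, CPM without length, the highest transcript, other peak thresholds, and leaving out each replicate.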

Additional observations from a re-analysis of the deposited data

Results flagged for a closer look

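In 8 of 77 groups of 4 libraries, the highest or the lowest library stood apart from the other 3 by more than Dixon's 95% critical value, which chance exceeds in about 1 in 20 groups. Ezh1 was at 122.3 CPM in YAL replicate 1, below the others. Jarid2 was at 84.63 CPM in OCR replicate 1, below the others. Cbx7 was at 148.1 CPM in YAL replicate 2, at 127.1 CPM in YCRRF replicate 4 and at 50.41 CPM in Kdr knockdown replicate 3, each above the others. Cbx8 was at 6.528 CPM in OCR replicate 3, below the others. Bmi1 was at 86.3 CPM in double knockdown replicate 2, and Rnf2 was at 75.25 CPM in YCRRF replicate 3, each below the others.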

How the results depend on the processing

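With DESeq2 in place of edgeR, 3 members were called for OCRRF versus OAL, and 1 member (Kdm6b) for YCR versus YAL and for the old minus young response, and the cause was not tested. With 1 fit of all groups, 0 members were called for OCR versus OAL, 0 for OCRRF versus OCR and 0 for OCRRF versus OAL, and 1 (Ezh2) for YCRRF versus YCR and for OAL versus YAL, and the cause was not tested. Leaving out 1 library at a time, the number called ran from 0 to 2 for OCRRF versus OCR, from 0 to 1 for OCRRF versus OAL and from 1 to 3 for OAL versus YAL, where fewer samples were tested. At a −log10 q of at least 5, 0 members had a PU.1 peak within 1 kb of a start. Without division by length, Ezh1 took place 1 in YAL, YCRRF, OAL, OCR and OCRRF, 2 in YCR, 2 in the GFP scramble control, 3 in the Kdr knockdown and 4 in the double knockdown. Ezh2 took place 8 in YCR, 5 in the GFP scramble control, 4 in the Kdr knockdown, 2 in the double scramble control and 1 in the double knockdown. The log2 ratio of Ezh2 to Ezh1 was then −2.04 in OCRRF, −0.30 in the GFP scramble control, 0.25 in the double scramble control and −0.071 in the Kdr knockdown, where its sign turned. These shifts follow from the exon lengths alone. Leaving out 1 library, the Kdr knockdown ratio ran from −0.024 to 0.15. With 1 fit of all groups, 9 of 100 member fold changes lost a call and 1 gained one. For OCR versus OAL, Ezh2 was then at 0.57 (edgeR adjusted p = 0.0833) and Cbx7 at −0.49 (edgeR adjusted p = 0.0644), both without a call. They were at 0.59 and −0.47 in the fit of the 2 groups. Further from the threshold in the fit of all groups were Ezh1 at −0.49 (edgeR adjusted p = 0.228), Bmi1 at −0.35 (edgeR adjusted p = 0.753) and Suz12 at 0.31 (edgeR adjusted p = 0.967). The sign of Rnf2 (−0.0087, OCR versus OAL) and of Suz12 (−0.0032, YCR versus YAL) turned in that fit, neither of them called. Of 1470 further recomputed fold changes of members, not counting that fit, 1370 kept their direction and their side of the threshold, 16 kept their direction and lost a call, 7 gained one, and 77 took the other sign, none of them called on either side. The other sign appeared with DESeq2 Rnf2 at −0.0080 (OCR versus OAL) and Cbx8 at −0.046 (OCRRF versus OCR), with DESeq2 size factors in edgeR Cbx8 at −0.027 (OCRRF versus OCR), with no filter on low counts Rnf2 at −0.0059 (OCR versus OAL) and Suz12 at −0.00040 (YCR versus YAL), with at least 10 counts in every library Jarid2 at 0.010 (OCR versus OAL) and Cbx8 at 0.014 (OCRRF versus OAL), and with the replicate number as a block Cbx8 at −0.12 (OCRRF versus OCR), Cbx8 at 0.091 (OCRRF versus OAL), Suz12 at 0.024 (the Kdr knockdown), Cbx8 at 0.0083 (the Kdr knockdown) and Rnf2 at 0.051 (the double minus Kdr response), and the cause was not tested. Leaving out 1 library at a time, the log2 fold changes whose sign turned had these ranges. In OCR versus OAL, Jarid2 ran from −0.044 to 0.088, Cbx8 from −0.16 to 0.064 and Rnf2 from −0.034 to 0.050. In OCRRF versus OCR, Cbx8 ran from −0.27 to 0.31, Bmi1 from −0.17 to 0.016 and Rnf2 from −0.21 to 0.026. In OCRRF versus OAL, Cbx8 ran from −0.31 to 0.18 and Rnf2 from −0.15 to 0.0040. In YCR versus YAL, Eed ran from −0.20 to 0.020, Suz12 from −0.083 to 0.066 and Cbx8 from −0.026 to 0.59. In YCRRF versus YCR, Eed ran from −0.079 to 0.15, Jarid2 from −0.14 to 0.15 and Kdm6b from −0.38 to 0.20. In YCRRF versus YAL, Eed ran from −0.18 to 0.081, Cbx7 from −0.041 to 0.14, Bmi1 from −0.24 to 0.031 and Rnf2 from −0.082 to 0.093. In OAL versus YAL, Kdm6b ran from −0.030 to 0.19 and Cbx8 from −0.10 to 0.27. In the Kdr knockdown, Ezh1 ran from −0.094 to 0.023, Suz12 from −0.10 to 0.058, Cbx7 from −0.29 to 0.00064, Cbx8 from −0.11 to 0.037 and Bmi1 from −0.052 to 0.023. In the double knockdown, Ezh1 ran from −0.024 to 0.14, Jarid2 from −0.048 to 0.024, Kdm6b from −0.59 to 0.015, Cbx8 from −0.33 to 0.14, Bmi1 from −0.0050 to 0.077 and Rnf2 from −0.015 to 0.13. In the double minus Kdr response, Ezh2 ran from −0.030 to 0.19, Eed from −0.16 to 0.017, Cbx7 from −0.10 to 0.20, Cbx8 from −0.29 to 0.18 and Rnf2 from −0.083 to 0.062. Of the other results recomputed, 210 stayed within their spread or within 1.5 times, 37 went beyond it and 2 took the other sign. The 37, given above as values or ranges, were 19 counts of members called, 1 count of members with a PU.1 peak, 14 places in the order and 3 ratios, and the 2 were Kdr knockdown ratios. The replicate numbers did not pair samples, with a median correlation of deviations between −0.0948 (OCR versus OAL) and 0.107 (the Kdr knockdown). Among the members, the block ended no call and added that of Ezh1 in OCRRF versus OCR, where the genes called went from 1110 to 3437. Where leaving out a library left a group with 1, that library was assumed to vary like the others. Cbx8 and Kdm6b had the fewest counts of the members, and OCRRF and both scramble controls rest on 2 libraries.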
